A study of Neurospora crassa with 33 samples.

Results

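The 150 genes described here had the highest ribosome density in WT Neurospora crassa, a filamentous fungus. They were chosen by measured values. Ribosome density, the level of ribosome-protected fragments (RPFs, the stretches of mRNA that a ribosome shields from nuclease) over the mRNA level of the same gene, was averaged on the log2 scale over 4 WT strains. The 150 genes with the highest average were kept out of the 3948 genes with a CDS of 300 to 6000 nt and a mean WT mRNA level of at least 20, of 9729 genes in all. Levels are the midpoints of the intervals that were deposited around each FPKM value, scaled so that each library sums to 1000000. They are relative to CDS length and are given below in these scaled units, and a density is therefore RPFs per length of mRNA, not ribosomes per mRNA molecule. The deposited FPKM column itself, scaled in the same way, gave levels that differed from the midpoints by CDS length. In the WT mRNA libraries the median log2 ratio of the FPKM value to the midpoint was −0.56 in the members with a CDS under 600 nt and −1.10 in those of 1500 nt or more. Densities of genes of different length thus depend on the value read, and the choice from the FPKM column shared 89 of the 150 genes.

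During translation an mRNA is read by several ribosomes at the same time. The density of RPFs on an mRNA rises when initiation is frequent and also when elongation is slow, so that a high density is not the same as a high rate of protein synthesis. CPC-3 is the Neurospora GCN2-type kinase, which phosphorylates the initiation factor eIF2α and is known for its role when amino acids are scarce.

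The hosts were a Δcpc-3 strain, in which cpc-3 is deleted, and WT. Both hosts carried 1 of 4 reporters, named 1xWT-EDP, 3xWT-EDP, 1xOPT-EDP and 3xOPT-EDP, with 1 or 3 copies of the same Flag-tagged CDS in its own (WT) or in optimized (OPT) codons, expressed from the ccg-1 promoter at the csr-1 locus. There is thus no host without a reporter, and each combination is 1 strain whose cultures share it. Mycelia were grown from conidia on plates and then as discs in shaken flasks in Vogel's medium with glucose, under constant light, without starvation, and cycloheximide was present in the lysis buffer alone. The order of the 4 strains in every list below is 1xWT-EDP, 3xWT-EDP, 1xOPT-EDP and 3xOPT-EDP.

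There were 13 RPF libraries of Δcpc-3 and 12 of WT strains, with 3 for each strain and replicate 4 for Δcpc-3 1xWT-EDP, and each strain had 1 mRNA library. The depth on CDS regions was inferred from the spacing of the interval bounds. It came to 1270403 to 7058910 reads per RPF library in Δcpc-3 and 2741252 to 10035080 in WT. The mRNA libraries had 1260506 to 1747779 reads in Δcpc-3 and 938863 to 1190368 in WT. cpc-3 had at most 0.379 units in the RPF libraries of Δcpc-3, against 12.1 to 14.3 in WT, so the labels and the deletion match. The hyphal markers act, bml, chs-1 and tef-1 were present in every library. Across the genes within the limits, RPF replicate 4 of Δcpc-3 1xWT-EDP had a Pearson coefficient of 0.963 to 0.977 with the other 3 libraries of that strain, which had 0.977 to 0.985 among themselves. The results that use it are given without it where it changes a count by over 1.5 times.

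The WT densities chose the genes and are described without a test. The mean log2 density ran between 0.32 and 2.30, that is 1.25 to 4.92 RPF units per mRNA unit. The median of the 150 genes was 0.39, against −0.16 in the other 3798 genes within the limits. Most of them are not far above the limit, since 117 of the 150 lay under 0.5 and only 5 reached 1. Inside the limit, NCU04036, NCU00211 and NCU09129 closed the list, all at a log2 density of 0.32. Just outside it were pgk (phosphoglycerate kinase) at 0.32 and NCU07430 and mig-6 at 0.31. The last gene inside and the first outside differed by 0.00108, far less than the SD of 0.37 of NCU09129 over its 4 WT strains. Neighbours on either side of the limit thus did not differ beyond their spread.

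**Figure D1:**
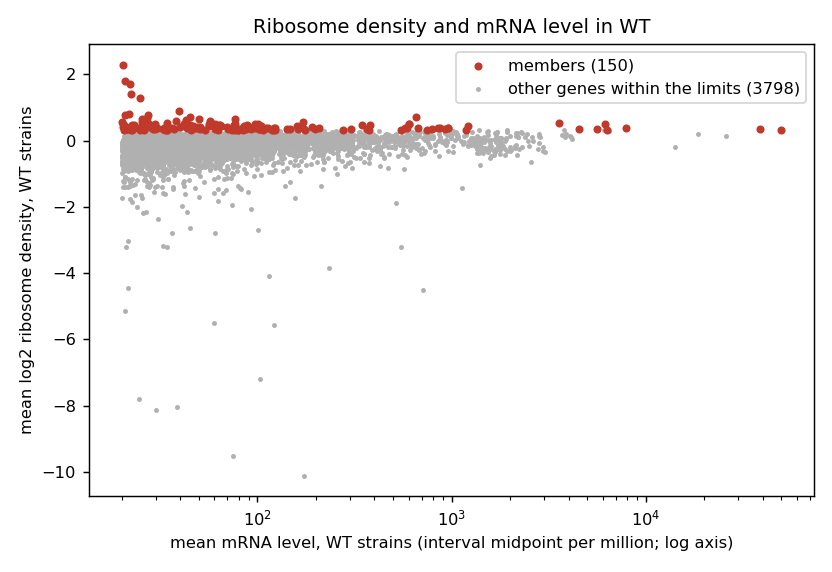
Mean log2 ribosome density over the 4 WT strains (vertical axis) against the mean WT mRNA level in scaled interval midpoints (horizontal log axis). Red points are the 150 genes and grey points the other 3798 genes within the limits. The 5 genes with a log2 density of at least 1 sit at the lowest mRNA levels, while the members at high mRNA levels sit just above the grey points.

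The highest WT densities belonged to genes with little mRNA, and the 5 highest means each held 1 library with a value listed at 0. NCU00855 had a mean of 2.30 ± 2.19 (SD, n = 4 strains), with 5.58, 1.32, 1.35 and 0.95 in the 4 WT strains. Its mRNA was listed at 0 in the WT 1xWT-EDP library, against 5.03, 41.4 and 35.2 units in the other WT libraries. NCU07783 (1.79 ± 4.11), NCU03774 (1.71 ± 4.12), NCU07088 (1.40 ± 4.22) and NCU02342 (1.28 ± 4.41) differed more between strains. Each of them was listed at 0 in 1 WT mRNA library, where its log2 density came to 7.95, 7.88, 7.55 and 7.89, and no log2 density above 0.45 was seen in the other 3 WT strains of these 4 genes. A value at 0 can be a failed estimate, and the log2 density then depends on the 0.1 that was added to both levels. NCU00417, annotated to mRNA splicing, followed with 0.90 ± 1.27, with 2.78 in 3xWT-EDP and −0.01 to 0.49 in the other 3 strains, and NCU00812, annotated to rRNA processing, had 0.80 ± 0.78. NCU09420 (0.78 ± 0.71), NCU08416 (0.77 ± 0.71) and NCU05844 (0.73 ± 0.95) completed the 10 highest. In all 10 the mRNA and the RPF levels of the Δcpc-3 and the WT libraries overlapped.

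Below these the densities were repeatable in abundant genes. The spread over the 4 WT strains exceeded 0.5 in 99 of the 150 genes, 1 in 53 and 3 in 7, and 88 genes had a log2 density above 0 in all 4 strains. The median SD over WT strains was 0.31 in the 150 genes, against 0.21 in the other genes within the limits, and the SD that counting error alone gives from the reads had a median of 0.23, against 0.17. Among the 31 members with a mean mRNA level of at least 200, no spread over the WT strains was above 0.62. At the other end, the 55 members with a mean level under 50 rested on a median of 20.5 reads per WT mRNA library, and their median SD was 0.63, against a counting SD of 0.34. Without any gene listed at 0 in a WT mRNA library the choice would differ by only these 5 genes.

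The 150 genes had shorter CDS than the other genes within the limits, a property that also depends on the value read, since the rule used the midpoints. Their median CDS was 649.5 nt, against 1269 nt in the other genes. CDS under 600 nt made up 41.3% of them (62 genes), against 12.9% of the other genes, and CDS of 1500 nt or more made up 3.33% (5 genes), against 38.97%. The longest was 2448 nt. The 150 genes chosen by the same rule from the FPKM column had a median CDS of 529.5 nt, against 1140 nt in the other genes within the limits. The median WT mRNA level was 69.9 units, against 58.7 units in the other genes.

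A pair of genes accounted for a large part of the levels of the 150. In the mRNA libraries the 150 genes summed to 10.6% to 11.8% of the total in Δcpc-3, against 13.6% to 15.0% in WT. In the RPF libraries they summed to 15.98% to 19.3% in Δcpc-3, against 17.5% to 19.6% in WT. NCU06110, which has no symbol, and nmt-1, a gene of thiamine synthesis, alone took 7.58% to 10.9% of the RPF total in Δcpc-3 and 10.5% to 11.7% in WT. The remaining members took 8.04% to 8.46% of the RPF total in Δcpc-3, against 6.91% to 7.85% in WT, without overlap.

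The Δcpc-3 libraries had no part in the choice and gave a test of whether these genes were densely occupied in another host. Log2 densities of the 4 Δcpc-3 strains, each minus the median of the 6984 tested genes, were tested against 0 with limma and Benjamini-Hochberg adjustment over all tested genes. A gene was called higher or lower at an adjusted p under 0.05 and a difference of at least 2-fold. All 150 genes were among the tested genes. In Δcpc-3, 65 of the 150 were called higher than the median gene (43.3%) and none lower. Over the genes within the limits, 7.06% were called higher and 4.52% lower, and over all tested genes 5.15% and 12.5%. The median centred density (log2 density minus the median gene) of the 150 was 0.95, against 0.23 in the other 3790 tested genes within the limits, and 142 of the 150 were above the median gene. A further 56 passed the adjusted p without reaching 2-fold, and 29 did not pass it. By the adjusted p alone, 121 (80.7%) were higher, against 40.4% of the genes within the limits and 26.1% of all tested genes, and none was lower, against 15.7% and 27.1%.

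The rank order was kept in part. Of the 150 genes, 39 (26%) were also among the 150 highest in Δcpc-3, 115 (76.7%) were in the top quartile of the genes within the limits, and 5 (3.3%) were in the bottom quartile. The count of called genes depended on the point of comparison, and the genes within the limits had a median centred density of 0.25 themselves. Centred on the genes within the limits, an alternative chosen after seeing the data, 22 of the 150 were called higher and none lower. Of all 6984 tested genes, 116 were called higher and 1251 lower with that centring. Among genes with at least 10 units in both assays, 28 of 149 tested members were called higher and none lower. Over all 4953 genes tested there the counts were 136 and 291.

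**Figure D2:**
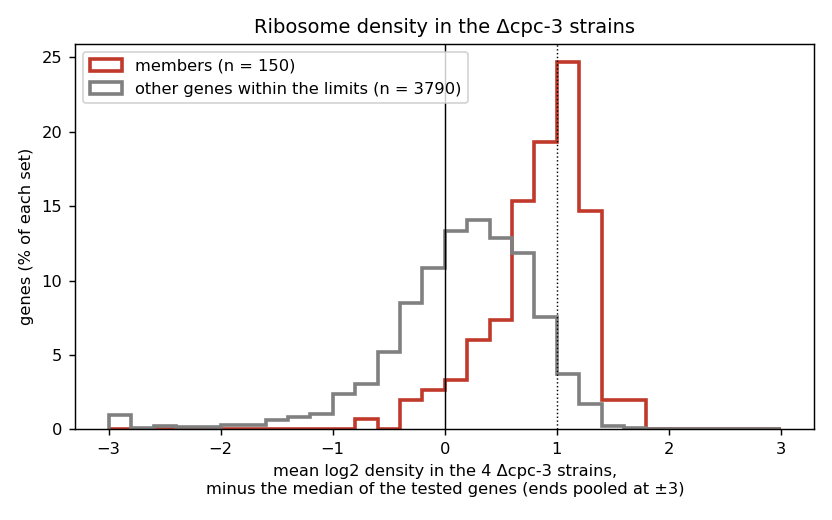
Distribution of the mean log2 density in the 4 Δcpc-3 strains minus the median of the tested genes (horizontal axis), as a percentage of each set of genes (vertical axis). The red line is the 150 genes (median 0.95), the grey line is the other 3790 tested genes within the limits (median 0.23), the solid vertical line is the median gene, and the dotted line is the 2-fold limit of a call.

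Both mRNA level and CDS length moved with this result, and their part in it was not tested. By mean mRNA level over the 8 libraries, 12 of 55 members under 50 units were called higher in Δcpc-3 (21.8%, against 2.02% of the other genes at that level), 28 of 64 between 50 and 200 (43.8%, against 5.90%) and 25 of 31 at 200 or more (80.6%, against 12.7%). The median centred densities were 0.66, 0.95 and 1.16 in the 150 genes, against 0.01, 0.31 and 0.58 in the others. By CDS length the median centred density was 1.08 under 600 nt, 0.87 at 600 to 899 nt, 0.86 at 900 to 1499 nt and 0.67 in the 5 CDS of 1500 nt or more. The other genes had 0.72, 0.56, 0.31 and −0.04 in the same classes. With the FPKM column the members had 1.34, 0.86, 0.67 and 0.70, against 0.90, 0.57, 0.23 and −0.20 in the other genes, and 65 members were again called higher. Of the other genes within the limits, 8.81% were called higher with that column. Within each class of level and of length the median of the 150 was thus above that of the other genes.

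**Figure D3:**
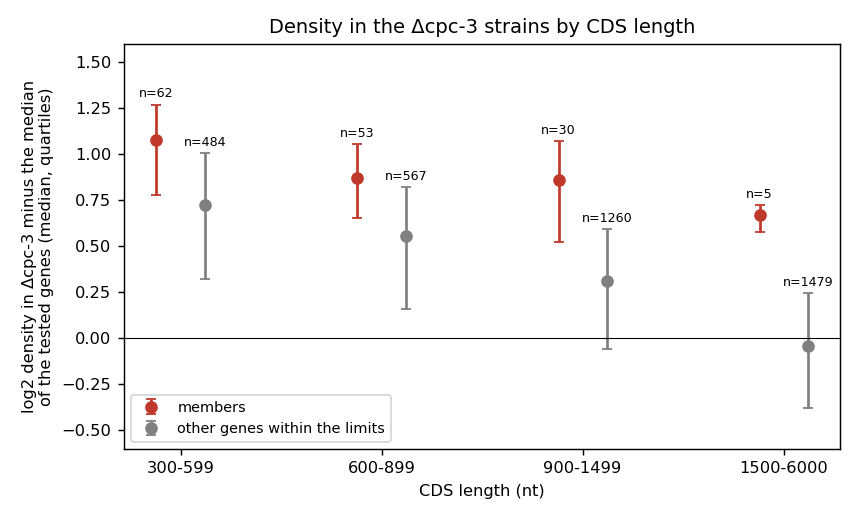
Median (points) and quartiles (bars) of the log2 density in Δcpc-3 minus the median of the tested genes, by CDS length class in nt, with the number of genes above each bar. Red points, the 150 genes, lie between 0.67 and 1.08 and grey points, the other genes within the limits, between −0.04 and 0.72.

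Members were grouped by role after their values were seen. The calls of single genes below are all against the median of all tested genes. Centred on the genes within the limits instead, 23 of the 65 named members lost their call. Of the 5 genes of thiamine and carbon metabolism, 4 were called higher in Δcpc-3. nmt-1 had 25931, 27128, 29929.8 and 26037 units of mRNA in the Δcpc-3 strains, against 36519, 39799, 39641 and 39546 in the WT strains. Its RPF level ran between 38629.7 and 49911 (median 41569.9) in Δcpc-3, against 48092 to 52791 (median 49863) in WT. The log2 densities were 0.68, 0.62, 0.73 and 0.65 in Δcpc-3 and 0.40, 0.30, 0.39 and 0.35 in WT, among the least variable of the named members. The mRNA levels of the hosts did not overlap and the RPF levels did. Relative to the median gene the Δcpc-3 density was 2.33-fold (log2 1.22, SE 0.08, limma adjusted p = 0.000945).

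fba, the aldolase of glycolysis, had 7198, 6893, 6675 and 6624 units of mRNA in Δcpc-3, against 7435, 7937, 8156 and 8086 in WT. Its RPF levels were 9873 to 10574 (median 10290.2) in Δcpc-3 and 9906 to 10549.9 (median 10067) in WT. Its Δcpc-3 density was 2.20-fold above the median gene (limma adjusted p = 0.0011). adh-1, alcohol dehydrogenase, was 2.19-fold above (adjusted p = 0.00117), with 4353 to 4993 units of mRNA in Δcpc-3 and 5555 to 6731 in WT. fdh, formate dehydrogenase, was 2.21-fold above (adjusted p = 0.0019), and xr, xylose reductase, had 1.29-fold (adjusted p = 0.0664), which missed the threshold. The centred densities of fba and fdh depended on the value read from the files. From the FPKM column in place of the midpoint they were 0.25 and 0.23 on the log2 scale, with adjusted p of 0.106 and 0.105, and both calls were lost.

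The 3 clock-controlled and cell surface members, ccg-14, ccg-16 and eas, were called higher. ccg-14, a clock-controlled gene of the family with a Barwin-like endoglucanase domain, had 1959.6, 2214, 2799.8 and 1954 units of mRNA in Δcpc-3, against 3241, 3588, 3953 and 3487 in WT. Its RPF levels were 3547 to 7277 (median 4646) in Δcpc-3 and 3932 to 6669 (median 5181) in WT. Its mRNA was lower in every Δcpc-3 strain while its RPF levels overlapped. The log2 densities were 1.24, 1.08, 1.14 and 1.10 in Δcpc-3 and 0.62, 0.36, 0.67 and 0.50 in WT, and the Δcpc-3 density was 3.23-fold above the median gene (limma adjusted p = 0.000539).

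ccg-16, also clock-controlled, had 4941, 5688, 5513 and 4488 units of mRNA in Δcpc-3, against 5113, 6121, 6819.6 and 6652 in WT, and log2 densities of 0.75 to 0.84 in Δcpc-3 and 0.41 to 0.63 in WT. It was 2.55-fold above the median gene in Δcpc-3 (limma adjusted p = 0.0008). eas, the hydrophobin that coats conidia and aerial hyphae, was 2.63-fold above (adjusted p = 0.00429). Its log2 densities were spread more widely, at 0.57, 0.34, 1.22 and 1.24 in Δcpc-3 and 0.61, 0.56, 0.20 and 0.67 in WT. Of the 7 clock-controlled genes within the limits that are named as such by symbol, a list added after the values were seen, ccg-14 and ccg-16 were members, and in Δcpc-3 3 of the 7 were called higher and 2 lower.

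**Figure D4:**
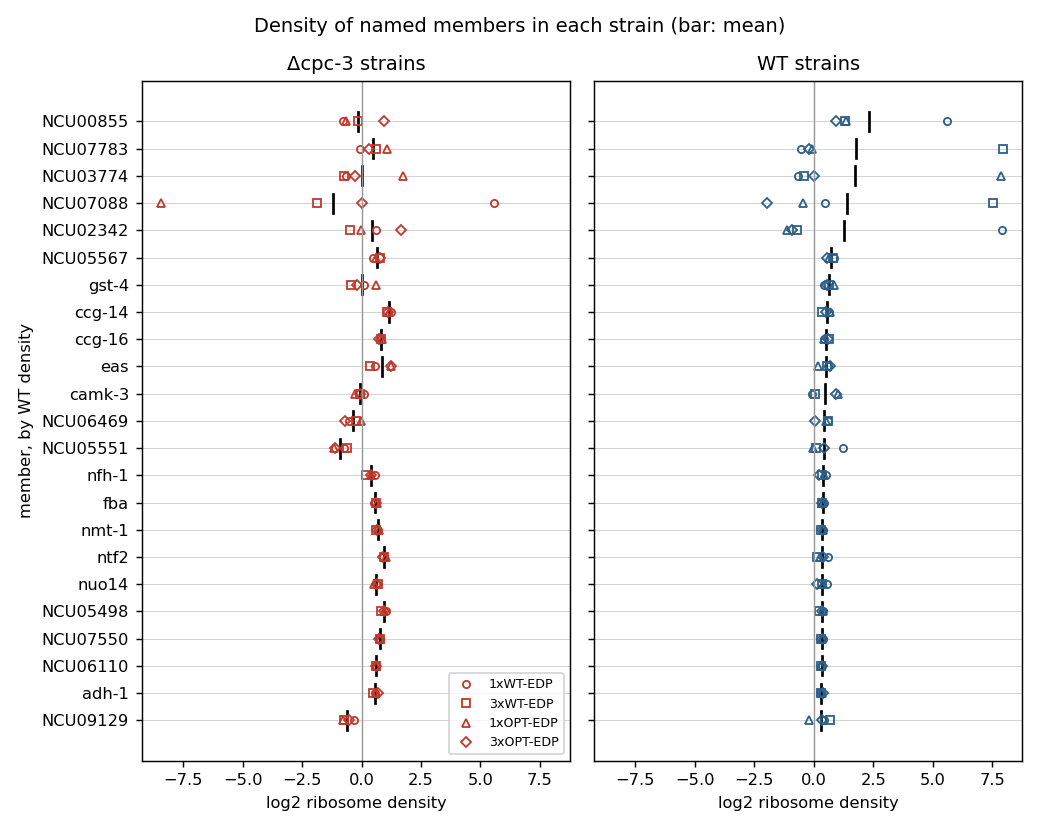
Log2 ribosome density of named members in the 4 Δcpc-3 strains (left) and the 4 WT strains (right). Each symbol is 1 reporter strain, the black bar is the mean, and genes run from the highest WT mean downwards. NCU00855, NCU07783, NCU03774, NCU07088 and NCU02342 each have 1 WT strain between 5.58 and 7.95, whereas nmt-1, NCU06110 and NCU07550 stay within 0.12 over the strains of either host.

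Of the 7 members with a known mitochondrial role, 4 were called higher. cyt-1, to which no role is given here, had 1.96-fold (limma adjusted p = 0.00422), under the 2-fold limit. nuo14, a subunit of respiratory complex I, had 271, 244, 270.4 and 270.4 units of mRNA in Δcpc-3 and 268, 318, 290.0 and 340.3 in WT, with overlapping RPF levels of 349.9 to 461 in Δcpc-3 and 361 to 418 in WT. Its Δcpc-3 density was 2.24-fold above the median gene (limma adjusted p = 0.00108). nuo11.6, another complex I subunit, reached 1.42-fold (adjusted p = 0.0143), under the 2-fold limit. eat-5, a subunit of cytochrome c oxidase, was 2.52-fold above (adjusted p = 0.00184), and cyt-21, a protein of the small subunit of the mitochondrial ribosome, was 2.57-fold above (adjusted p = 0.00237). NCU00211, annotated to the large subunit of the mitochondrial ribosome, had a centred density of 0.03 (SE 0.15, adjusted p = 0.875) and NCU09129, annotated to complex IV assembly, had −0.05 (SE 0.11, adjusted p = 0.746). These 2 were the last genes inside the limit in WT. Of the 23 complex I genes within the limits, a list added after the values were seen, 2 were members and 1 was called higher in Δcpc-3.

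Protein turnover was represented by rpn-9, a regulatory subunit of the proteasome, pca-5, of its core, and csn-2, of the COP9 signalosome, and all were called higher. rpn-9 had 129.6, 110.4, 116 and 116 units of mRNA in Δcpc-3, against 139, 142, 145 and 139 in WT, without overlap. Its RPF levels were 150.3 to 204 (median 176) in Δcpc-3 and 160.5 to 204 (median 180.4) in WT, and overlapped. The fold over the median gene in Δcpc-3 was 2.22 for rpn-9, 2.04 for pca-5 and 2.06 for csn-2, with limma adjusted p of 0.00157, 0.00191 and 0.00214. With the FPKM column the centred log2 densities of rpn-9, pca-5 and csn-2 were 0.77, 0.83 and 0.80, under the 2-fold limit. Of 30 proteasome genes within the limits, by a list added after the values were seen, rpn-9 and pca-5 were members and 6 were called higher in Δcpc-3, with a median centred density of 0.84 over the 30. Of 7 COP9 signalosome genes within the limits, by a list also added then, csn-2 was a member and 1 was called higher. Their median centred density was 0.53.

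In the redox group, gst-1, a glutathione S-transferase, was 2.17-fold above the median gene in Δcpc-3 (limma adjusted p = 0.00671) and trx, a thioredoxin, 2.27-fold (adjusted p = 0.00157). gst-4, also a glutathione S-transferase, had log2 densities of 0.12, −0.44, 0.63 and −0.21 in Δcpc-3, against 0.44, 0.66, 0.84 and 0.54 in WT, and its 1.49-fold value in Δcpc-3 missed the threshold (adjusted p = 0.0558). hsp90a, which has an HSP20-like domain, was 2.35-fold above (adjusted p = 0.00105), and pex11, a factor of peroxisome division, was 2.55-fold above (adjusted p = 0.00274). Of 9 genes of chaperones and heat shock proteins within the limits, hsp90a was a member and 1 was called higher, with a median centred density of 0.44.

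The nuclear genes ranged widely. NCU07529, annotated as an RNA polymerase II cofactor, had the highest Δcpc-3 density of all members, 3.46-fold above the median gene (limma adjusted p = 0.00692). It rested on little mRNA, with 22.7, 26.1, 9.86 and 24.7 units in Δcpc-3 and 21.2, 13.4, 16.8 and 36.2 in WT, and its log2 densities were 1.08, 0.59, 2.33 and 0.96 in Δcpc-3. NCU08030, annotated as a subunit shared by RNA polymerases, and NCU03782, of the RNA polymerase II core, were 2.28-fold and 2.15-fold above (adjusted p = 0.00188 and 0.00122). ntf2, a nuclear transport factor, had 591, 619, 551 and 628 units of mRNA in Δcpc-3, against 715, 839, 875 and 742 in WT, and a narrow log2 density of 0.89 to 1.03 in Δcpc-3, 2.81-fold above the median gene (adjusted p = 0.000721). hat-1, a histone acetyltransferase, pcn, the sliding clamp of DNA replication, and aab-1, a CCAAT-binding factor, had 1.86-fold, 1.75-fold and 1.61-fold. All 3 passed the adjusted p (0.00575, 0.00912 and 0.00391) without reaching 2-fold. Of 6 genes annotated to RNA processing, 1 was called higher.

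None of the 5 signalling genes was called. nfh-1, a 14-3-3 protein, had 1.93-fold in Δcpc-3 (limma adjusted p = 0.00186), ppm-1, a protein phosphatase, 1.65-fold (adjusted p = 0.00545) and camk-3, a Ca2+/calmodulin-dependent kinase, 1.38-fold (adjusted p = 0.0137). mob-2b, a Mob-type kinase activator, had 1.05-fold (adjusted p = 0.706). Its WT log2 densities were 1.87, 0.33, 0.01 and −0.17, so 1 strain raised its WT mean of 0.51.

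Among genes of the translation machinery, NCU04172, annotated to cytoplasmic translation, was 2.21-fold above the median gene in Δcpc-3 (limma adjusted p = 0.00181), and NCU06469, annotated to the ribosome, had 1.13-fold (adjusted p = 0.306). The lists taken by gene symbol are described without a test, and the members were 150 of the 3948 genes within the limits. At that share a list of this size can hold no member, so an empty list is not read as a result. Genes of amino acid biosynthesis, of which 62 were within the limits, had no member and 1 gene called higher in Δcpc-3, and genes of cell wall synthesis and remodelling had no member of 40, with 5 called higher and 8 lower. The respiratory chain and ATP synthase list had 4 members of 37, namely cyt-1, cyt-21, nuo11.6 and nuo14, and 3 of the 37 were called higher. The list was drawn by symbol and takes in cyt genes of any function, such as cyt-21 of the mitochondrial ribosome, which was among the 3 called. No member was found among 6 cytosolic ribosomal protein genes, 3 translation factor genes, 16 ion-transporting ATPase genes, 13 genes of mitochondrial import and carriers, 8 cytoskeletal genes or 4 lipid and sterol genes with a symbol. Only 30 of the 150 genes have a symbol, and the table of names holds no descriptions, so these counts cover the named genes alone.

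Several of the tightest members have no symbol, and apart from NCU07550 no role is given to them here, which does not mean that none is known. NCU06110 had 28354, 32963, 36016 and 29321 units of mRNA in Δcpc-3, against 46477, 51626, 51423 and 50390.2 in WT, the highest level of the 150 genes. Its log2 densities were 0.62, 0.60, 0.61 and 0.62 in Δcpc-3 and 0.33, 0.31, 0.32 and 0.34 in WT, and it was 2.24-fold above the median gene in Δcpc-3 (limma adjusted p = 0.001). NCU05498 had log2 densities of 1.03, 0.81, 0.93 and 0.95 in Δcpc-3 and 0.40, 0.22, 0.39 and 0.36 in WT, and was 2.79-fold above (adjusted p = 0.000776). NCU05488 had 0.53 to 0.59 in Δcpc-3 and 0.37 to 0.49 in WT, and was 2.17-fold above (adjusted p = 0.00105). NCU07550, annotated to ATP metabolism, had 0.75 to 0.79 in Δcpc-3 and 0.28 to 0.40 in WT, and was 2.50-fold above (adjusted p = 0.000804). NCU06110, NCU05498, NCU05488 and NCU07550, which were named after their values were seen, had narrow ranges within each host, and none of their densities overlapped between hosts. How many other genes do not overlap was not counted, and the WT densities chose the members, so nothing is read from this. With the FPKM column the difference between the hosts in log2 density was −0.33 for NCU06110, −0.38 for NCU05488 and −0.44 for NCU07550, all with turned signs and none past the adjusted p (0.068, 0.0556 and 0.0571), and 0.23 for NCU05498 (adjusted p = 0.184). NCU08720 and NCU17258 were also among the 10 highest in Δcpc-3, at 3.10-fold and 2.94-fold (adjusted p = 0.00525 and 0.0015).

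Of the 8 members below the median gene in Δcpc-3, none passed the limma adjusted p, and 1 passed an unadjusted p of 0.05. The 5 lowest were NCU07088 (−0.64, SE 2.24), NCU05551 (−0.36, SE 0.13), NCU01841, annotated to the kinetochore (−0.29, SE 0.21), NCU04036 (−0.23, SE 0.15) and NCU03078 (−0.19, SE 0.36), as log2 differences from the median gene. NCU07088 was listed at 0 in 2 of 4 mRNA libraries of Δcpc-3 and in 8 of 13 RPF libraries, so that its densities of 5.55, −1.89, −8.42 and 0.00 cannot be ranked. NCU05551 had log2 densities of −0.75, −0.63, −1.17 and −1.10 in Δcpc-3, against 1.21, 0.10, −0.02 and 0.41 in WT, without overlap.

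The comparison of the hosts used the WT libraries that chose the genes, so its counts are a description beside the background. The p-values and overlaps between hosts of single members, here and in the paragraphs below, are descriptive for the same reason. Nothing is read from them about the 150 genes. In density, at an adjusted p under 0.05 and a 2-fold ratio, 0 of the 150 were higher in Δcpc-3 and 1 was lower (0.667%). Of the genes within the limits 0.254% were higher and 3.76% lower, and of all tested genes 0.272% and 7.62%. The gene was NCU05551, with 0.397 of its WT density (limma adjusted p = 0.0171), and the call was lost when every profile was centred on its median gene and when the 3xWT-EDP or the 3xOPT-EDP strains were left out. The median log2 change of density was −0.04 in the 150 genes and −0.32 in all tested genes. By the adjusted p alone 7 were higher, namely ccg-14, NCU06603, nmt-1, ntf2, NCU05498, NCU07550 and NCU06110, and 5 were lower, namely NCU06469, NCU05551, NCU03086, NCU00211 and NCU09129. No background share was computed for the adjusted p alone in this comparison, and the split moved with the scaling. After every profile was centred on its median gene 27 members were higher and 0 lower, and with the FPKM column 3 and 28. The signs of nmt-1, NCU07550 and NCU06110 turned with the FPKM column.

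In mRNA, 11 members were higher in Δcpc-3 (7.33%) and 10 lower (6.67%), by the limma adjusted p. The background was 17.1% and 6.14% within the limits, and 21.2% and 3.81% over all tested genes. The median mRNA change of all tested genes was 0.31 on the log2 scale, and after every profile was centred on its median gene 1 member was higher and 38 were lower. With the same centring 492 of all 6984 tested genes were higher and 1008 lower. In a bulk culture, fewer cells of a type and less RNA per cell cannot be told apart. Without the 3xWT-EDP strains 5 members passed, without 1xOPT-EDP 8 and without 3xOPT-EDP 7. The calls over all tested genes fell too, from 1479 higher and 266 lower to 647 and 65, 653 and 76, and 577 and 80. In RPF levels 40 were higher (26.7%) and 29 lower (19.3%), beside 21.4% and 25.6% within the limits and 20.5% and 22.1% over all tested genes. With the FPKM column 23 members were higher and 60 lower, beside 931 and 2905 of the 6684 genes tested with it. Of the 150 genes 15 changed in both assays in the same direction, 0 in opposite directions, 6 in mRNA alone, 54 in RPF alone and 75 in neither. No background share was computed for this split, so nothing is read from it. RPF calls outnumbered mRNA calls over all tested genes too.

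eas had the largest rise in both assays among the members called in both. Its mRNA was 1599, 1251, 1259 and 1629 units in Δcpc-3, against 828, 469, 555 and 556 in WT. Its RPF level was 1536 to 4189.6 (median 2828) in Δcpc-3, against 583 to 1274 (median 800.4) in WT. Neither assay overlapped between hosts, and the folds were 2.42 in mRNA and 3.05 in RPF (limma adjusted p = 0.00506 and 0.00317). It is also 1 of the 5 markers of conidia and aerial growth (con-6, con-8, con-10, eas and al-1). Of these con-8 and eas were called higher in mRNA in Δcpc-3, con-6, con-8 and eas were called higher in RPF, and none was called lower. The markers did not all rise, since al-1 had lower medians in Δcpc-3 without a call. Its medians were 40.5 units of mRNA in Δcpc-3 and 55.3 in WT, and 36.0 and 48.7 in RPF, with overlapping ranges. Without eas, the summed marker level was 1166 to 1823 units of mRNA in Δcpc-3, against 648 to 978 in WT, nearly all of it con-8, while con-6 and con-10 were listed at 0 in some mRNA libraries of both hosts. The part of these markers in the rise of eas was not tested.

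NCU05498 had 7106, 6960.1, 6636 and 7128 units of mRNA in Δcpc-3, against 4028, 4767, 4591 and 4839.7 in WT. Its RPF level was 11759.8 to 15674 (median 12831) in Δcpc-3, against 4812 to 6553 (median 5694) in WT, and neither assay overlapped. The folds were 1.53 in mRNA and 2.30 in RPF (limma adjusted p = 0.00609 and 2.84e-05), and the mRNA call was lost after centring (adjusted p = 0.151).

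NCU05567 had the largest fall of mRNA among the called members. It had 272, 166, 158 and 244 units of mRNA in Δcpc-3, against 532, 626, 723 and 732 in WT, and RPF levels of 209 to 453 (median 307) in Δcpc-3, against 881 to 1284 (median 1010.4) in WT. The hosts did not overlap in either assay, and the folds of 0.315 in mRNA and 0.302 in RPF (limma adjusted p = 0.00266 and 0.000149) stood beside a density of 0.959-fold (adjusted p = 0.743). NCU08923 and NCU06912 fell in both assays too, to 0.668-fold and 0.626-fold in mRNA (adjusted p = 0.0133 and 0.00326).

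nmt-1 and NCU06110 fell in mRNA to 0.700-fold and 0.631-fold (limma adjusted p = 0.00983 and 0.00683). In RPF levels NCU06110 was at 0.770-fold (adjusted p = 0.00921) and nmt-1 at 0.869-fold, which missed the threshold (adjusted p = 0.073). The log2 differences in RPF from the FPKM column were −1.02 for NCU06110 (adjusted p = 6.1e-05) and −0.87 for nmt-1 (adjusted p = 0.000236), so that nmt-1 was called lower too. ccg-14 fell in mRNA to 0.620-fold (adjusted p = 0.0149), with 0.944-fold in RPF (adjusted p = 0.666). adh-1, ntf2, nfh-1 and NCU07550 were at 0.737-fold to 0.767-fold in mRNA, all past the threshold. These falls in mRNA kept their direction with the FPKM column and after centring. camk-3 was the kinase among the members higher in mRNA, at 1.84-fold (adjusted p = 0.0478), a call that was lost with the FPKM column and after centring.

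**Figure D5:**
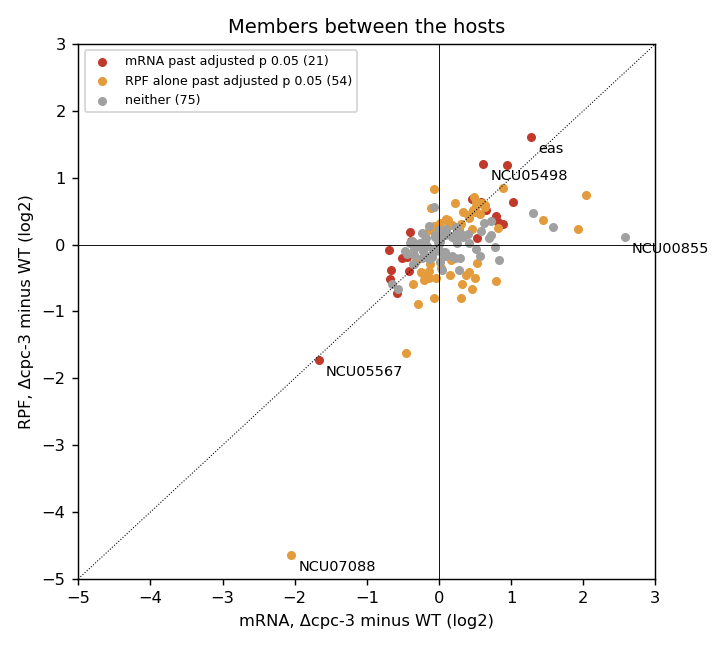
Log2 difference between Δcpc-3 and WT in RPF level (vertical axis) against that in mRNA level (horizontal axis) for the 150 genes. Red points passed the adjusted p of 0.05 in mRNA (21), orange points in RPF alone (54) and grey points in neither (75), and the dotted diagonal marks equal change in both. eas is at 1.27 in mRNA and 1.61 in RPF, NCU05567 at −1.67 and −1.73, and NCU07088, listed at 0 in several libraries, lies at the lower left.

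RPF levels changed in both directions in members without a called change in mRNA. WT RPF levels took part in the choice of the genes, so these values and p-values are descriptive. The largest difference was that of NCU07088, at −4.64 on the log2 scale (limma adjusted p = 0.0238), which rests on the libraries where it was listed at 0. NCU03078 had RPF levels of 8.08 to 16.8 units (median 11.8) in Δcpc-3, against 26.8 to 52 (median 34.4) in WT, a fold of 0.324 (limma adjusted p = 4.66e-05). nuo11.6 had 142 to 211 (median 177) in Δcpc-3, against 236 to 275 (median 251) in WT, a fold of 0.708 (adjusted p = 0.00061). NCU03078 and nuo11.6 did not overlap between hosts in RPF levels. NCU09129 was at 0.665-fold (adjusted p = 0.000926), gst-4 at 0.540-fold (adjusted p = 0.0115), mob-2b at 0.706-fold (adjusted p = 0.00182) and aab-1 at 0.745-fold (adjusted p = 0.00337). NCU05844 was at 1.79-fold (adjusted p = 0.04), NCU07529 at 1.78-fold (adjusted p = 0.0024), NCU07783 at 1.68-fold (adjusted p = 0.000924) and fdh at 1.63-fold (adjusted p = 0.00359), with 347 to 587 (median 431) in Δcpc-3, against 222 to 358 (median 267) in WT. With the FPKM column the sign of fdh turned, to −0.22 on the log2 scale (adjusted p = 0.368).

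Reporter comparisons within Δcpc-3 called few of these genes. Between OPT and WT codons of the reporter, none of the 150 passed the limma adjusted p in the 13 RPF libraries, and none of the tested genes did (0% in both directions). At an unadjusted p under 0.05 there were 14 members and 615 tested genes, and 146 members differed by less than 1.5-fold. The smallest adjusted p of a member was 0.227, that of eas, at 1.70-fold in OPT over WT codons. Between 3 and 1 copies, 3 members were lower with 3 copies (2%), beside 0.401% lower and 0.1% higher over all tested genes. These were NCU05844 (0.559-fold, adjusted p = 0.0361), NCU06603, annotated as a carbon-oxygen lyase (0.738-fold, adjusted p = 0.0143), and NCU01107 (0.749-fold, adjusted p = 0.0172). Each comparison rests on 2 strains per side whose cultures share the strain. No member passed when replicate 1, 2 or 3 of every strain was left out, 6 passed without replicate 4 of Δcpc-3 1xWT-EDP, and 8 passed without the first 3 libraries of that strain. Over all tested genes, 7 were higher and 28 lower with every library. Without replicate 4 the counts were 41 and 110, and without the first 3 libraries 49 and 46. With replicate 1, 2 or 3 left out, 0 were higher and at most 1 was lower.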

How the data were processed

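RPF and mRNA-seq libraries of 4 Δcpc-3 and 4 WT strains were used, with groups taken from the labels. The authors mapped reads to CDS regions and deposited, per library and gene, FPKM with interval bounds and the coverage signal. The submitters' processing notes name Bowtie2 and Cufflinks, and versions, build and annotation are not given in the sources used here. Depth came from the interval bounds, whose spacing gave whole reads within 0.02. Interval midpoints were scaled to 1000000 per library, RPF replicates were averaged per strain, and 0.1 was added before log2. The deposited coverage was not used. The fits took the 6984 of 9729 genes whose mean scaled level reached 1 in RPF and in mRNA libraries, with limma 3.58.1 in R 4.3.3 and Benjamini-Hochberg adjustment. FPKM are not counts, so no count test was run, and folds are on the scale with the added 0.1. On simulated data with 200 of 6984 genes changed 4-fold, the fits recovered 88% (density in Δcpc-3), 88.5% (hosts) and 100% (libraries of Δcpc-3) of them. False calls numbered 3, 8 and 11. The simulated libraries shared no strain and had the same spread for every gene, and smaller changes were not simulated. The 100% therefore does not give the power of the reporter comparisons. Tables and plots used Python 3.11.15, numpy 2.4.6, pandas 2.3.3 and matplotlib 3.10.9. Where p-values compare strains, the 4 reporter strains of a host stand as its replicates, and mRNA has 1 library per strain, so the spread includes reporter, culture and library.

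The members and the gene lists were chosen with earlier results of these data known. Named genes are the 10 highest in WT and in Δcpc-3 density, the first 20 members with a symbol by WT density, up to 3 members of each list, genes at the limit, the 5 lowest in Δcpc-3, the 3 largest rises and falls between hosts, and members spread over more than 3 log2 units in WT. Other members, among them those with annotated roles from the ontology terms in the study's supplementary tables, were named after their values were seen. Symbols came from the NC12 table (9728 of 9729 identifiers found, 1118 with a symbol), and 10 of the lists have no symbol pattern and hold no genes. The coordinates and sequences of the genes are not used here. Alternatives covered the value read, the added constant, the filter, centring, replicates, strains, blocks and the limits of the rule.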

Additional observations from a re-analysis of the deposited data

Results flagged for a closer look

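Of 130 groups of 4 strains (65 named members in 2 hosts), 8 held a strain far from the other 3, and chance alone gives about 1 in 20. In WT, the log2 density of NCU00855 was 5.58 in 1xWT-EDP against a median of 1.33, that of NCU07783 was 7.95 in 3xWT-EDP against −0.13, that of NCU03774 was 7.88 in 1xOPT-EDP against −0.19, and that of NCU02342 was 7.89 in 1xWT-EDP against −0.82. In each of these libraries the mRNA of the gene was listed at 0. NCU06469 was low in WT 3xOPT-EDP, at 0.036 against a median of 0.55. In Δcpc-3, all 3 cases fell in 1xWT-EDP, with NCU08720 at 2.03 against 0.79, NCU04036 at −0.25 against −0.95, and NCU08923 at 0.11 against 0.27.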

How the results depend on the processing

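The choice of genes moved with the settings. Of the 150, 89 were shared with the list from the FPKM column, 75 with that from a mean mRNA of at least 10 and 89 with that from at least 50, and 102 to 112 when 1 reporter was left out. The calls in Δcpc-3 (65) became 28 with the filter of 10, 22 when centred on the genes within the limits, 84 without a filter, 121 by adjusted p alone (22 and 121 come from alternatives added after seeing the data), and 58 to 69 without 1 replicate or reporter. Between hosts, the count of density calls (1) was 7 with FPKM, 2 with an added constant of 1, 0 after centring, and 0 to 2 without 1 replicate or reporter. The background moved too, with 1127 of 6684 tested genes called lower in density with FPKM, beside 532 of 6984 with the midpoints. The count in mRNA (21) was 39 after centring and 5 to 14 without 1 reporter. Without 1 reporter, 577 to 990 of all tested genes were higher and 65 to 150 lower, against 1479 and 266 with all strains. For OPT against WT codons (0), 1 member passed without replicate 2 and 1 without replicate 4 of Δcpc-3 1xWT-EDP, with 0 to 1 over the left-out replicates. For 3 against 1 copies (3), the range was 0 to 0 without a replicate, 6 without replicate 4 and 8 without the other 3. The calls over all tested genes moved in the same way, as given above. Replicate numbers did not pair the Δcpc-3 RPF libraries (mean correlation of same-numbered deviations 0.11, 7 of 12 libraries best with their own number). In WT the same-numbered RPF libraries did deviate together (mean 0.37, lowest 0.12, 9 of 12 best with their own number), but no comparison was made within WT. Reporters did not pair the hosts (−0.05 to 0.13). The replicate block gave 0 calls for codons and 4 for copies, and a block on the reporter gave 1 density, 8 mRNA and 56 RPF calls. The cause of these shifts was not tested. Single genes near the median gene changed sign, none of them called. With FPKM, NCU09129 was at 0.29, NCU01841 at 0.066, NCU04036 at 0.040 and NCU03078 at 0.041. With the filter of 10, NCU06469 was at −0.024, mob-2b at −0.14 and NCU00211 at −0.17, and centred within the limits at −0.059, −0.18 and −0.21. NCU00211 was at −0.033 with replicates weighted by reads, and NCU09129 at 0.10 with no filter and 0.046 with mean centring. Without 1 replicate or reporter, the ranges were −2.88 to 1.77 for NCU07088, −0.12 to 0.024 for NCU09129, −0.043 to 0.19 for mob-2b, −0.11 to 0.16 for NCU00211 and −0.64 to 0.0067 for NCU03078. Of 1103 values of single genes under alternatives, 990 kept direction and call, 67 lost and 24 gained a call. Depth limits the rare members, with a median of 20.5 reads per WT mRNA library under a level of 50.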
